A study of Mus musculus with 6 samples.

Results

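In 19 genes of mouse peritoneal macrophages, at least 1 transcript was higher and at least 1 other was lower after deletion of Fbxo38, with no overlap between the genotypes for either of them. RNA was measured in 6 libraries, 3 from Fbxo38 conditional knockout mice (cKO 1 to 3), in which the gene is deleted in myeloid cells, and 3 from wild-type mice (WT 1 to 3). The animals were pairs of WT and cKO littermates, and both groups of macrophages had received 20 ng/mL of IL-4 with IL-13 over 24 h, so no unstimulated cells enter. The sources used here give neither strain, sex and age nor the driver of the deletion and the exons removed. Nothing in the labels says which numbers form a littermate pair.

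The deposited table lists 33539 transcripts of 16358 genes, and each has an absolute log2 fold change of at least 1.0001 in the authors' deposited comparison. A gene was taken as a member where 1 transcript had its lowest WT value above its highest cKO value and another the reverse. Each of the pair also had to average at least 1 TPM (transcripts per 1000000 transcripts) in its higher group. Of 7335 genes with 2 or more listed transcripts, 21 met these conditions, or 0.286%. Eed and Sirt3 were left out by name, which leaves 19 members. These genes have 91 listed transcripts, of which 24 were higher and 19 were lower in cKO without overlap, 43 opposed transcripts in all. Over all listed transcripts the same conditions were met by 365 in the higher direction (1.09%) and by 807 in the lower direction (2.41%). Because the members were chosen on the difference between cKO and WT, all differences below are descriptions and carry no test, and nothing is read from their counts.

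A gene gives rise to several transcripts by the choice of first exon, of splice sites and of the last exon. Some of these encode the protein, some keep an intron, and some carry an early stop codon that marks them for nonsense-mediated decay, the pathway that degrades such mRNAs. A gene can therefore change which transcripts it makes without a like change in the amount of protein-coding mRNA, and short-read libraries assign a read to 1 isoform only where isoforms differ in sequence.

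The libraries were not alike apart from genotype. Listed transcripts made up 6.57% of the TPM of WT 2, against 2.01% to 3.79% elsewhere. Eif2s3y, a Y-linked gene, was at 35.6 to 45.1 TPM in the cKO libraries, at 51.2 TPM in WT 3 and listed at 0 in WT 1 and WT 2. Xist, the RNA of the inactive X chromosome in female cells, was listed at 0 in the cKO libraries and in WT 3 and was at 3.83 and 43.8 TPM in WT 1 and WT 2. The cKO libraries and WT 3 thus showed the male marker alone, and WT 1 and WT 2 the female one alone. The part of this difference in the results was not tested. Summed over its 7 listed transcripts, the targeted gene Fbxo38 was at 6.14, 9.08 and 5.90 TPM in cKO and at 8.79, 11.8 and 12.4 TPM in WT, and cKO 2 lay above WT 1. Of 12 macrophage markers 6 are listed and summed to 231 to 317 TPM in cKO and to 66.9 to 86.9 TPM in WT, whereas the others, such as Cd68 and Lyz2, were not analysed here. Summed markers of B, T, mast and dendritic cells and of granulocytes stayed at or under 1.72 TPM in every library, without Cd79a, Ms4a1, Cpa3 and Prg2, which were not analysed here. Markers of mesothelial cells and fibroblasts, 11 of 12 of them listed, summed to 17.7 to 57.4 TPM in cKO and to 56.2 to 475 TPM in WT, where WT 2 was highest. The marker sums and the Fbxo38 sum cover only transcripts that passed the fold-change limit of the deposited table. They therefore hold only transcripts with at least that fold change in the authors' comparison, and such transcripts may still overlap between the genotypes. The sums do not stand for the whole RNA of a gene or the share of a cell type. The part of the macrophage and mesothelial lists in the differences of the 19 genes was not tested. In bulk RNA, fewer cells of a type and less RNA per cell cannot be told apart.

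The opposed transcripts were mostly of low abundance. The 24 that were higher had a median of 3.95 TPM in cKO, and 22 of them averaged under 10 TPM. The 19 that were lower had a median of 1.89 TPM in WT, and 17 averaged under 10 TPM. On the log2(TPM + 1) scale, which understates the change of low transcripts, the higher set differed by a median of 1.04 (0.41 to 2.10) and the lower set by a median of -1.02 (-3.32 to -0.60). Over all listed transcripts that met the same conditions, the medians were 0.84 and -0.97. The highest cKO library was cKO 2 for 13 of the 24 higher transcripts, and the highest WT library was WT 2 for 9 of the 19 lower ones. Over all listed transcripts meeting the conditions, these libraries were the highest for 136 of 365 and for 509 of 807. In the authors' deposited table, 4 of the 24 higher transcripts and none of the 19 lower ones had an adjusted p under 0.05. Over the whole of the authors' deposited table that call was made for 0.0984% of transcripts in the higher and 0.17% in the lower direction.

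**Figure D1:**
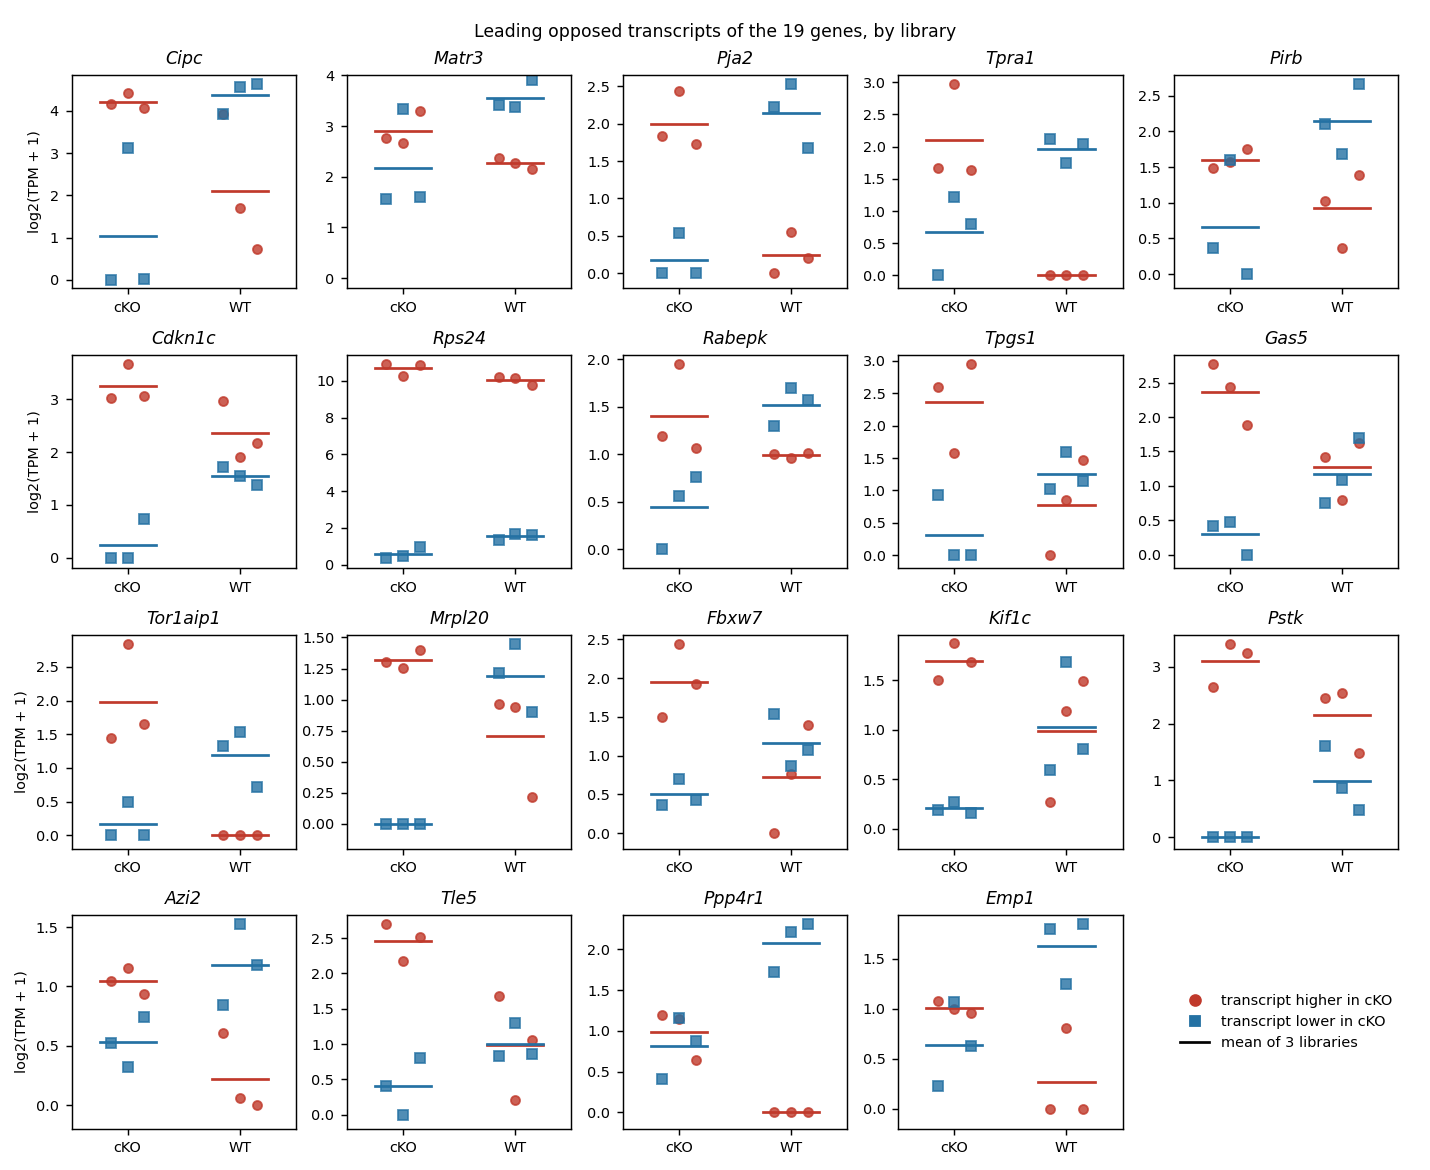
TPM of the leading opposed pair of each of the 19 genes, as log2(TPM + 1), with a point per library, cKO left of WT, and a bar at the mean of 3 libraries; each panel has its own vertical scale. Circles, the transcript higher in cKO, and squares, the transcript lower in cKO, change places between the genotypes in Pja2, Tpra1 and Tor1aip1, whereas in Rps24 the circles lie far above the squares in both.

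To set the members side by side, the most abundant transcript of each direction was taken as a leading pair, and the share of the pair held by the transcript higher in cKO was computed per library. This share averaged between 56.5% and 100% in cKO, with a median over genes of 93.5%, and between 0% and 99.8% in WT, with a median of 29.4%. It was over 50% in each cKO library and under 50% in each WT library for 6 genes, which are Pja2, Tor1aip1, Tpra1, Mrpl20, Azi2 and Rabepk. In Cdkn1c, Pstk and Rps24 the transcript higher in cKO led the pair in all 6 libraries. Summed TPM of the pair overlapped between cKO and WT for 16 of the 19 genes. A pair adds a transcript chosen as higher to one chosen as lower, so overlap of the sum is largely fixed by the choice, and nothing is read from that count. No overlap was seen in Rps24 and Tle5, with a higher sum in cKO, and in Emp1, with a lower sum.

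**Figure D2:**
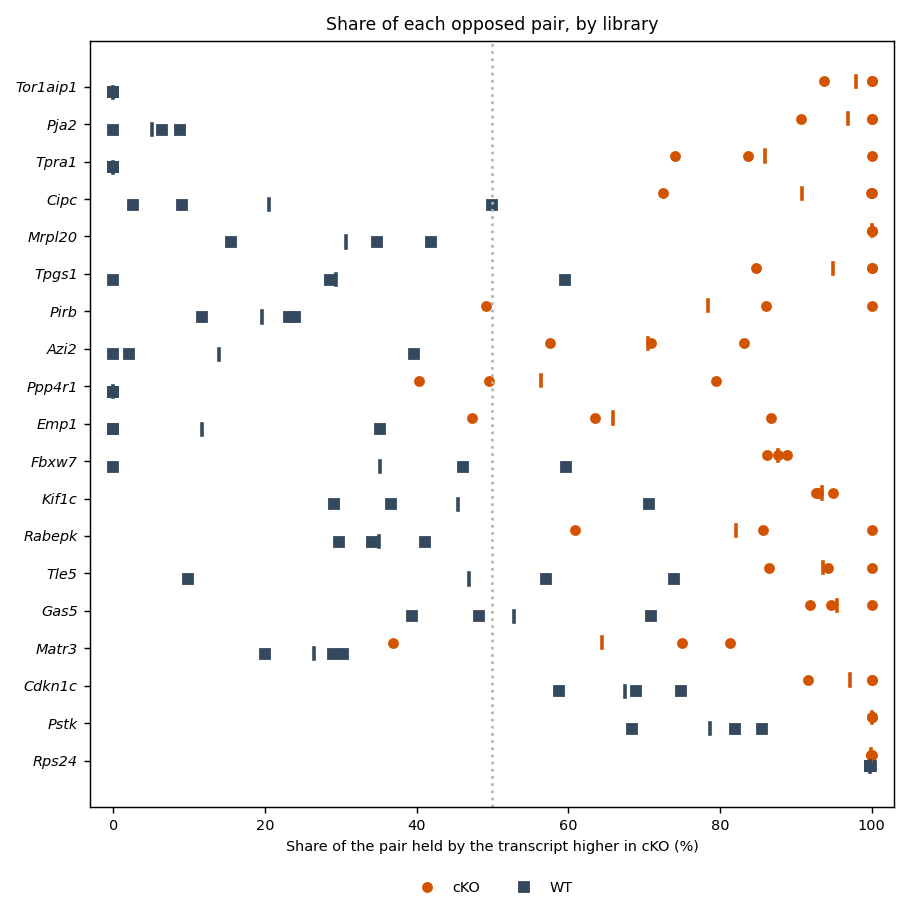
Share of the leading pair held by the transcript higher in cKO, in percent, with a point per library and a tick at each mean, cKO above WT in each row, and a dotted line at 50%. Rows run from Tor1aip1, with means of 97.9% in cKO and 0% in WT, to Rps24, with means of 99.97% in cKO and 99.8% in WT.

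Ubiquitin ligase genes were represented by Pja2 and Fbxw7. Pja2 encodes a RING-type ubiquitin ligase known for the turnover of regulatory subunits of protein kinase A. Its isoform without exon 4, ENSMUST00000024889, was at 2.57, 4.40 and 2.31 TPM in cKO 1 to 3 and at 0, 0.46 and 0.15 TPM in WT 1 to 3. The isoform with exon 4, ENSMUST00000024888, was at 0, 0.45 and 0 TPM in cKO and at 3.68, 4.77 and 2.18 TPM in WT. Every cKO library thus held mostly the shorter form and every WT library mostly the longer one. The shorter form held 96.9 ± 5.36% of the pair in cKO and 5.08 ± 4.55% in WT (SD, n = 3 each). The sum of both was 3.24 ± 1.40 TPM in cKO and 3.75 ± 1.45 TPM in WT and overlapped. In the authors' deposited table the shorter form had a log2 fold change of 4.36 with an adjusted p of 4.65e-05, and the longer form one of -4.50 with an adjusted p of 0.725.

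Pja2 is shown in sequence because the exchange is a single whole exon. In GENCODE M21 (build GRCm38), exon 4 of the longer form lies on the minus strand at chr17:64297724-64297909 and is coding throughout. It has 186 bases, or 62 codons, so the reading frame is kept without it. All 4345 bases of the shorter form are also in the longer one, and only the new junction tells it apart. In the first sequence the capitals mark exon 4 between the last 20 bases of exon 3 and the first 20 of exon 5. In the second they mark the exon that follows exon 3 when exon 4 is skipped.
Pja2 ENSMUST00000024888: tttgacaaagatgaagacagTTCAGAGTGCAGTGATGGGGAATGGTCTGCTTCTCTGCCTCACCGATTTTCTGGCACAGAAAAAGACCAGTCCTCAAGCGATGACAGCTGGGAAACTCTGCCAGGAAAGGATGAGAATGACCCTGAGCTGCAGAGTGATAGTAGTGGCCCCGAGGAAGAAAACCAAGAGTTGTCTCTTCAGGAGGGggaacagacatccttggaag
Pja2 ENSMUST00000024889: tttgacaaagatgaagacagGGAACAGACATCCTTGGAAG

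Fbxw7 encodes, like Fbxo38, an F-box protein, and it brings substrates such as cyclin E and Myc to an SCF ubiquitin ligase. Its assembled transcript MSTRG.11361.1 was at 1.82, 4.42 and 2.79 TPM in cKO and at 0, 0.70 and 1.64 TPM in WT. The reference transcript ENSMUST00000107675, which is protein-coding, was at 0.29, 0.62 and 0.35 TPM in cKO and at 1.90, 0.82 and 1.11 TPM in WT. The groups came close for both, with 1.82 TPM in cKO 1 beside 1.64 TPM in WT 3 for the assembled form. Of 54 F-box and cullin genes with 2 or more listed transcripts, Fbxw7 was the 1 member. Fbxo7, an F-box gene, was just outside the TPM minimum, with 1.68 TPM in cKO for its higher transcript and 0.97 TPM in WT for its lower one.

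Signalling genes came next. Ppp4r1 encodes a regulatory subunit of protein phosphatase 4. ENSMUST00000162109, annotated as a target of nonsense-mediated decay, was at 1.28, 1.21 and 0.56 TPM in cKO, while all 3 WT libraries list it at 0. The full-length coding transcript ENSMUST00000073104 was at 0.33, 1.23 and 0.83 TPM in cKO and at 2.30, 3.62 and 3.94 TPM in WT. The decay form held 79.5%, 49.6% and 40.3% of the pair in cKO, so the coding form was still the larger in cKO 2 and cKO 3. Summed, the pair reached 1.81 ± 0.55 TPM in cKO and 3.29 ± 0.87 TPM in WT (SD, n = 3 each), and only cKO 2, at 2.44 TPM, lay above a WT library, WT 1 at 2.30 TPM. In the authors' deposited table the decay form had an adjusted p of 9.75e-07 and the coding form one of 0.0707.

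For Ppp4r1 the splice that sets the forms apart is the use of exon 11. This exon is on the plus strand at chr17:65824260-65824789 (GRCm38) and has 530 bases, which leaves a remainder of 2 bases after division into codons. Without it the annotated coding length is 1128 bases, against 2853 bases with it. The sequences give the last 30 bases of exon 10 in lower case and, in capitals, the first 30 of the exon joined to it.
Ppp4r1 ENSMUST00000162109: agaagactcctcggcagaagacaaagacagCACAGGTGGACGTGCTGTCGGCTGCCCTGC
Ppp4r1 ENSMUST00000073104: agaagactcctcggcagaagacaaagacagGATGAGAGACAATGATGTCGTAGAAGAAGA

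Azi2 encodes an adaptor of the kinase TBK1 in innate signalling. Its assembled transcript MSTRG.19339.2 was at 1.07, 1.23 and 0.91 TPM in cKO and at 0.52, 0.04 and 0 TPM in WT. Its decay-annotated transcript ENSMUST00000154583 was at 0.44, 0.25 and 0.67 TPM in cKO and at 0.79, 1.88 and 1.27 TPM in WT. The pair together was nearly equal, at 1.52 ± 0.0513 TPM in cKO and 1.50 ± 0.36 TPM in WT (SD, n = 3 each). Pirb encodes an inhibitory receptor of myeloid and B cells that binds MHC class I. All 8 of its listed transcripts were assembled ones. MSTRG.15693.20 was at 1.79, 1.96 and 2.38 TPM in cKO and at 1.04, 0.29 and 1.61 TPM in WT, and MSTRG.15693.4 was at 0.29, 2.03 and 0 TPM in cKO and at 3.30, 2.20 and 5.34 TPM in WT. In cKO 2 both were near 2 TPM, and the lower one came within 0.17 TPM of WT 2. Pirb belongs to a family of near-identical Pira genes, so its reads may be shared with copies and its values are uncertain.

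Membrane proteins of less known function were Emp1 and Tpra1. Emp1 encodes an epithelial membrane protein of the PMP22 family, and its coding transcript ENSMUST00000205156 was at 1.11, 0.99 and 0.94 TPM in cKO and at 0, 0.75 and 0 TPM in WT. The assembled MSTRG.15566.1 was at 0.17, 1.10 and 0.54 TPM in cKO and at 2.47, 1.38 and 2.59 TPM in WT. The sum of this pair was lower in each cKO library, at 1.62 ± 0.42 TPM, than in any WT library, at 2.40 ± 0.24 TPM (SD, n = 3 each). Emp1 was the member nearest to the minimum, with a mean of 1.01 TPM in cKO for its higher transcript. Next came Ppp4r1, with 1.02 TPM in cKO for its higher transcript, and Tle5, with 1.02 TPM in WT for its lower one. The nearest genes outside it were Epn1 at 0.98 TPM in cKO, Fbxo7 at 0.97 TPM in WT and Anp32b at 0.957 TPM in WT.

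Tpra1 encodes a membrane protein related to G protein-coupled receptors. The short noncoding transcript ENSMUST00000128171 was at 2.19, 6.84 and 2.12 TPM in cKO, while each WT library lists it at 0. ENSMUST00000128790, annotated for nonsense-mediated decay, was at 0, 1.33 and 0.74 TPM in cKO and at 3.33, 2.35 and 3.11 TPM in WT. The short form held 100%, 83.7% and 74.1% of the pair in cKO and 0% in WT. With all 9 listed Tpra1 transcripts as the denominator, its share differed by 48.2 percentage points instead of 85.9. Its 263 bases share 236 with the decay form, and 27 are its own. They come from an acceptor further upstream, at chr6:88909481-88909527 on the plus strand (GRCm38), against chr6:88909508-88909580 in the decay form. The capitals mark the exon that follows the shared one.
Tpra1 ENSMUST00000128171: acagttgctgacaagTTGACCCTGTGCCTC
Tpra1 ENSMUST00000128790: acagttgctgacaagATCCTGTGGGAAATC

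Regulators of transcription and of the cell cycle were Cipc, Tle5 and Cdkn1c. Cipc encodes a repressor of the CLOCK protein of the circadian clock and had the most abundant lower transcript of the 19 genes. ENSMUST00000038369 was at 16.8, 20.2 and 15.7 TPM in cKO and at 14.1, 2.25 and 0.65 TPM in WT. ENSMUST00000187814 was at 0, 7.66 and 0.02 TPM in cKO and at 14.1, 22.4 and 23.7 TPM in WT. In WT 1 both transcripts had the same value, 14.07 TPM. The sum of the pair was 16.8, 27.9 and 15.8 TPM in cKO and 28.1, 24.7 and 24.3 TPM in WT, and cKO 2 fell within the WT range.

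In GENCODE M21 the Cipc transcripts have the same 4098 bases in the same 4 exons and differ only in the annotated start codon, with coding lengths of 1233 and 1296 bases. Reads cannot tell such transcripts apart. Whether they were also identical in the authors' annotation, which is not named, was not tested. Among listed transcripts, 15 pairs of 1 gene have identical sequences in GENCODE M21. The TPM of both partners were equal in all 6 libraries for 14 of the 15 pairs, the exception being Cipc. The first 30 coding bases of each are shown with the start codon in capitals. They lie on the plus strand of chromosome 12 and belong to different exons of the same RNA, at chr12:86952754-86952783 for the first and chr12:86947447-86947476 for the second (GRCm38).
Cipc ENSMUST00000038369: ATGcaaagagtacctgtgctccgtcttccg
Cipc ENSMUST00000187814: ATGcgcctgctaacccgccgggctggtcat

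Tle5, earlier named Aes, encodes a short corepressor of the Groucho family. A pair of retained-intron transcripts was higher. ENSMUST00000218432 was at 5.47, 3.51 and 4.72 TPM in cKO and at 2.22, 0.16 and 1.09 TPM in WT, and ENSMUST00000217807 was at 1.90, 5.84 and 1.44 TPM in cKO and at 0, 1.32 and 0 TPM in WT. The lower transcript, ENSMUST00000220348, was at 0.33, 0 and 0.74 TPM in cKO and at 0.78, 1.47 and 0.82 TPM in WT. That difference was thin, as cKO 3 and WT 1 were 0.04 TPM apart. All 7 listed Tle5 transcripts together were at 8.46, 10.5 and 7.52 TPM in cKO and at 3.11, 4.03 and 2.43 TPM in WT, with no overlap.

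Cdkn1c encodes an imprinted inhibitor of cyclin-dependent kinases and had 4 higher transcripts beside 1 lower one. The lower one, ENSMUST00000037287, was at 0, 0 and 0.67 TPM in cKO and at 2.29, 1.94 and 1.59 TPM in WT. Among the higher ones, the reference transcript ENSMUST00000167912 was at 4.21, 4.71 and 3.63 TPM in cKO and at 2.94, 1.51 and 1.18 TPM in WT. The reference transcript ENSMUST00000207910, coding but annotated as incomplete, was at 2.33, 6.33 and 3.98 TPM in cKO and at 1.16, 2.10 and 0 TPM in WT. The most abundant of the 4, the assembled MSTRG.17149.1, was at 7.11, 11.6 and 7.33 TPM in cKO and at 6.82, 2.76 and 3.53 TPM in WT, so cKO 1 was just above WT 1. MSTRG.17149.5 was at 8.63, 5.01 and 8.61 TPM in cKO and at 2.46, 3.90 and 2.27 TPM in WT, and the authors' deposited table gives it an adjusted p of 0.039. All 7 listed Cdkn1c transcripts together were at 31.2, 31.2 and 35.1 TPM in cKO and at 18.6, 17.2 and 9.81 TPM in WT. The gene as listed was thus higher in each cKO library, and the lower transcript was a small part of it.

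The Cdkn1c forms ENSMUST00000167912 and ENSMUST00000037287 share 1847 bases and differ mainly at the splice acceptor of exon 2 and at the RNA start. ENSMUST00000167912 has 39 coding bases more at its 5′ end. The first 60 coding bases of each are given, from the minus strand at chr7:143460648-143460707 and at chr7:143460609-143460668 (GRCm38). Capitals mark the start codon and, within the longer form, the codon at which the shorter form starts.
Cdkn1c ENSMUST00000167912: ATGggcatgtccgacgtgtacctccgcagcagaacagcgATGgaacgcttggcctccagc
Cdkn1c ENSMUST00000037287: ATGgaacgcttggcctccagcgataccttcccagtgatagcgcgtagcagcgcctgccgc

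**Figure D3:**
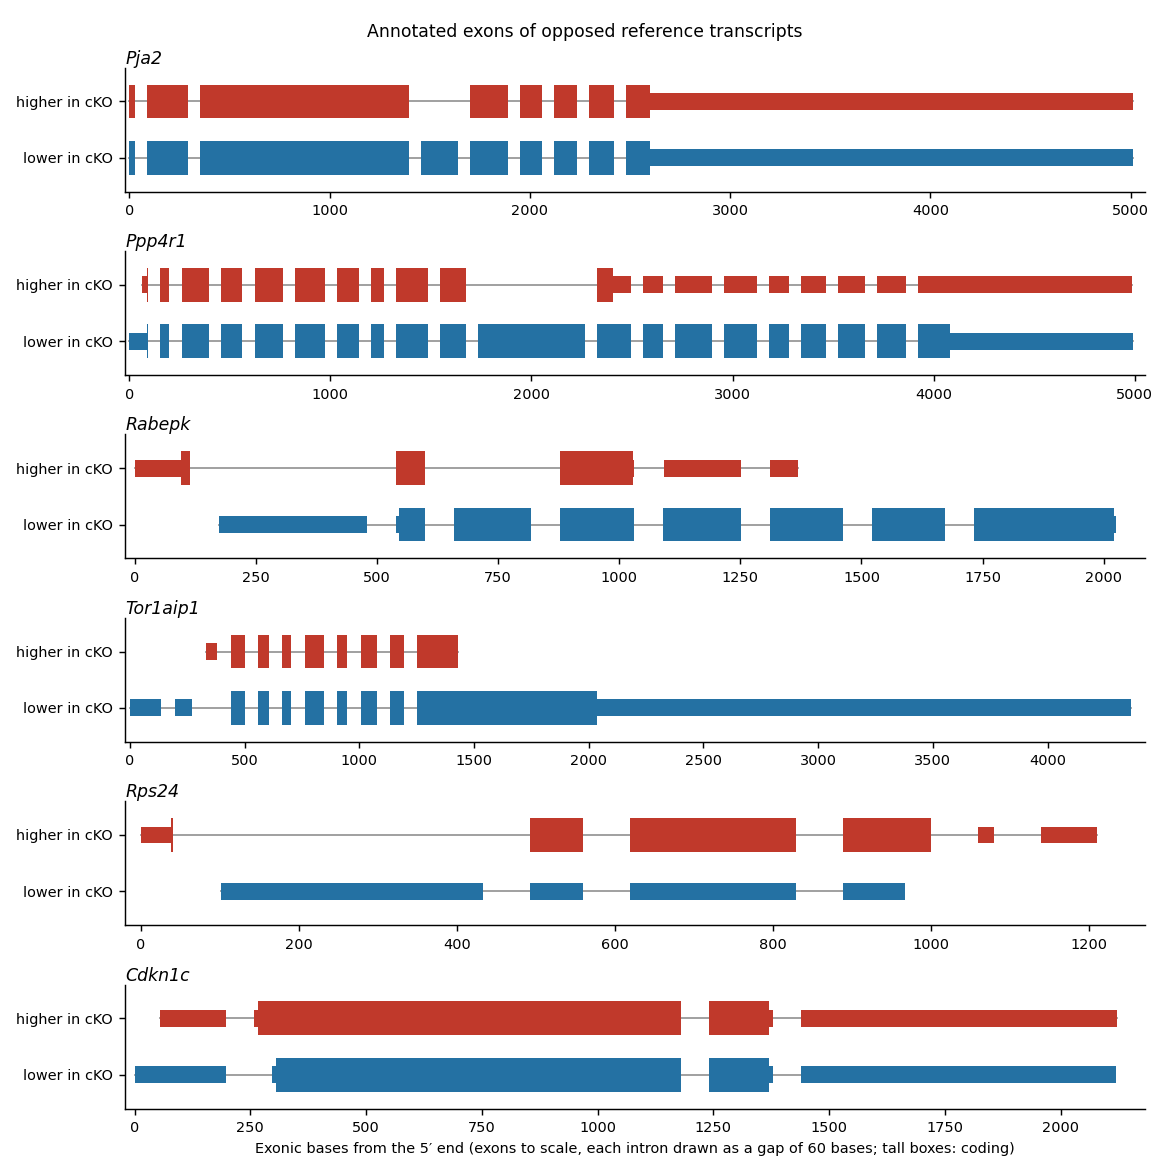
Exons of opposed reference transcripts of 6 genes from GENCODE M21, in bases from the 5′ end, with exons to scale, introns as fixed gaps, tall boxes for coding bases, and the transcript higher in cKO above the one lower in cKO. The skipped exons of Pja2 (186 bases) and Ppp4r1 (530 bases) appear as boxes in the lower row with none above them.

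Genes of RNA and protein synthesis made up a further group of members, Rps24, Mrpl20, Pstk, Matr3 and Gas5. Rps24 encodes a protein of the small ribosomal subunit. Its coding transcript ENSMUST00000169826 was at 1894, 1200 and 1878 TPM in cKO and at 1180, 1132 and 867 TPM in WT, the highest level of any opposed transcript. The noncoding ENSMUST00000224569 was at 0.30, 0.39 and 0.97 TPM in cKO and at 1.54, 2.22 and 2.02 TPM in WT. The coding form held 99.98%, 99.97% and 99.95% of the pair in cKO and 99.87%, 99.80% and 99.77% in WT, and the mean share differed by 0.153 percentage points. It was also close to an overlap, since cKO 2 exceeded WT 1 by a ratio of 1.02. Of 39 cytosolic ribosomal protein genes with 2 or more listed transcripts, Rps24 was the 1 member.

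The Rps24 forms start at different first exons, on the plus strand at chr14:24490718-24490758 for the coding form and chr14:24490859-24491190 for the noncoding one (GRCm38), and both join the same second exon. The last 15 bases of each first exon are in lower case and the shared exon in capitals. The coding form's start codon ends its first exon, whereas the noncoding form has no annotated coding bases.
Rps24 ENSMUST00000169826: gccgtagccatcatgAATGACACAGTAACC
Rps24 ENSMUST00000224569: catggtgctatcgagAATGACACAGTAACC

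Mrpl20 encodes a protein of the large mitochondrial ribosomal subunit. Its noncoding transcript ENSMUST00000184339 was listed at 0 in all 3 cKO libraries and was at 1.32, 1.73 and 0.87 TPM in WT. The assembled MSTRG.13141.1 was at 1.46, 1.38 and 1.64 TPM in cKO and at 0.95, 0.92 and 0.16 TPM in WT, and alone made up the pair in cKO. Pstk encodes the kinase that phosphorylates seryl-tRNA on the way to selenocysteine. Its decay-annotated ENSMUST00000141914 was at 5.29, 9.52 and 8.50 TPM in cKO and at 4.44, 4.84 and 1.78 TPM in WT, and the retained-intron ENSMUST00000207933 was at 6.61, 3.57 and 4.25 TPM in cKO and at 0, 0 and 2.81 TPM in WT. The lower ENSMUST00000133284, a coding fragment annotated as incomplete, was listed at 0 in cKO and was at 2.05, 0.82 and 0.39 TPM in WT. It shares no exonic base with the leading higher transcript. As in Cdkn1c, the listed transcripts summed higher in cKO, at 16.4, 16.5 and 16.7 TPM, against 7.26, 7.48 and 8.68 TPM in WT.

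Matr3 encodes matrin 3, a nuclear matrix protein that binds RNA. ENSMUST00000166793 was at 5.84, 5.33 and 8.78 TPM in cKO and at 4.18, 3.84 and 3.48 TPM in WT. ENSMUST00000235199 was at 1.95, 9.12 and 2.02 TPM in cKO and at 9.61, 9.41 and 13.9 TPM in WT. For the lower form cKO 2 was 0.29 TPM from WT 2, while cKO 1 and cKO 3 were far below. Both forms have the same 2538 coding bases and differ only at their ends, with 3232 bases found in the first alone and 77 in the second alone. Of the 12 leading pairs with both partners in GENCODE M21, Matr3 was the only one with the same annotated coding sequence.

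Gas5 is a noncoding host gene whose introns carry small nucleolar RNAs. ENSMUST00000160152 was at 5.81, 4.39 and 2.70 TPM in cKO and at 1.68, 0.73 and 2.09 TPM in WT, and ENSMUST00000160551 was at 0.33, 0.39 and 0 TPM in cKO and at 0.69, 1.12 and 2.24 TPM in WT. Both are retained-intron forms, from different parts of the gene with 27 bases in common. The higher one spans Snord78 within an exon, and the lower one spans Gm25789 and Mir5117, which GENCODE M21 classes as small nucleolar RNA genes. With all 7 listed transcripts, Gas5 was at 8.41, 9.43 and 7.74 TPM in cKO and at 4.05, 7.66 and 8.05 TPM in WT, and the groups overlapped.

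Genes of membranes, traffic and the cytoskeleton were Tor1aip1, Rabepk, Kif1c and Tpgs1. Tor1aip1 encodes an inner nuclear membrane protein that activates torsins, ATPases of the nuclear envelope. ENSMUST00000136397 was at 1.71, 6.14 and 2.14 TPM in cKO, while the WT libraries list it at 0. ENSMUST00000169241 was at 0, 0.41 and 0 TPM in cKO and at 1.50, 1.89 and 0.64 TPM in WT. The share of the first was 97.9 ± 3.61% in cKO (SD, n = 3) and 0% in each WT library, the widest difference among the 19 genes. In the authors' deposited table the first had a log2 fold change of 7.41 with an adjusted p of 0.00603 and the second one of -3.25 with an adjusted p of 0.895. The first is annotated without its 3′ end, and 572 of its 620 bases are also in the second.

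The Tor1aip1 forms begin at different first exons and then share an exon at chr1:156031414-156031473 on the minus strand (GRCm38), which is in capitals here. The base runs in lower case are the ends of exon 1, chr1:156032906-156032953, in the first and of exon 2, chr1:156033726-156033800, in the second.
Tor1aip1 ENSMUST00000136397: ggtatcagtcataagTGATGAATGAAGACC
Tor1aip1 ENSMUST00000169241: caccagaggcttcagTGATGAATGAAGACC

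Rabepk encodes a kelch-repeat effector of the GTPase Rab9. Its decay-annotated ENSMUST00000141099 was at 1.28, 2.86 and 1.09 TPM in cKO and at 1.01, 0.95 and 1.02 TPM in WT. The coding ENSMUST00000118108 was at 0, 0.48 and 0.70 TPM in cKO and at 1.45, 2.24 and 1.97 TPM in WT. The lower form was well separated, whereas the higher one passed by 0.07 TPM between cKO 3 and WT 3. Exon 3 of the coding form, chr2:34795172-34795329 on the minus strand (GRCm38), has 158 bases and is missing from the decay form, as are exons 7 and 8. The junction after exon 2 is shown, with the next exon in capitals.
Rabepk ENSMUST00000141099: caggaaagccacatgGAACACACCAGTGGG
Rabepk ENSMUST00000118108: caggaaagccacatgGTACACTTTGACTTG

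Kif1c encodes a kinesin motor that carries cargo along microtubules. The assembled MSTRG.2929.3 was at 1.84, 2.66 and 2.22 TPM in cKO and at 0.21, 1.28 and 1.81 TPM in WT, so WT 3 lay 0.03 TPM below cKO 1. The coding ENSMUST00000072187 was at 0.14, 0.21 and 0.12 TPM in cKO and at 0.51, 2.21 and 0.75 TPM in WT, and the authors' deposited table gives it an adjusted p of 0.0676. WT 2 carried most of its WT mean, and without that library Kif1c, like Tle5, no longer met the conditions for a member. Tpgs1 encodes a subunit of a tubulin polyglutamylase, an enzyme complex that modifies tubulin. Its noncoding ENSMUST00000219585 was at 5.01, 1.97 and 6.69 TPM in cKO and at 0, 0.81 and 1.78 TPM in WT, and its noncoding ENSMUST00000220175 was at 0.90, 0 and 0 TPM in cKO and at 1.03, 2.02 and 1.21 TPM in WT. The Tpgs1 forms use different donor sites of the first exon, which ends at the last lower-case base of each sequence, on the plus strand in chr10:79669883-79670051 for the first and chr10:79669913-79670141 for the second (GRCm38). The shared second exon is in capitals.
Tpgs1 ENSMUST00000219585: tgcatgagcttccagGACCGCCTTCAACAA
Tpgs1 ENSMUST00000220175: aagaagcccagcaagGACCGCCTTCAACAA

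**Figure D4:**
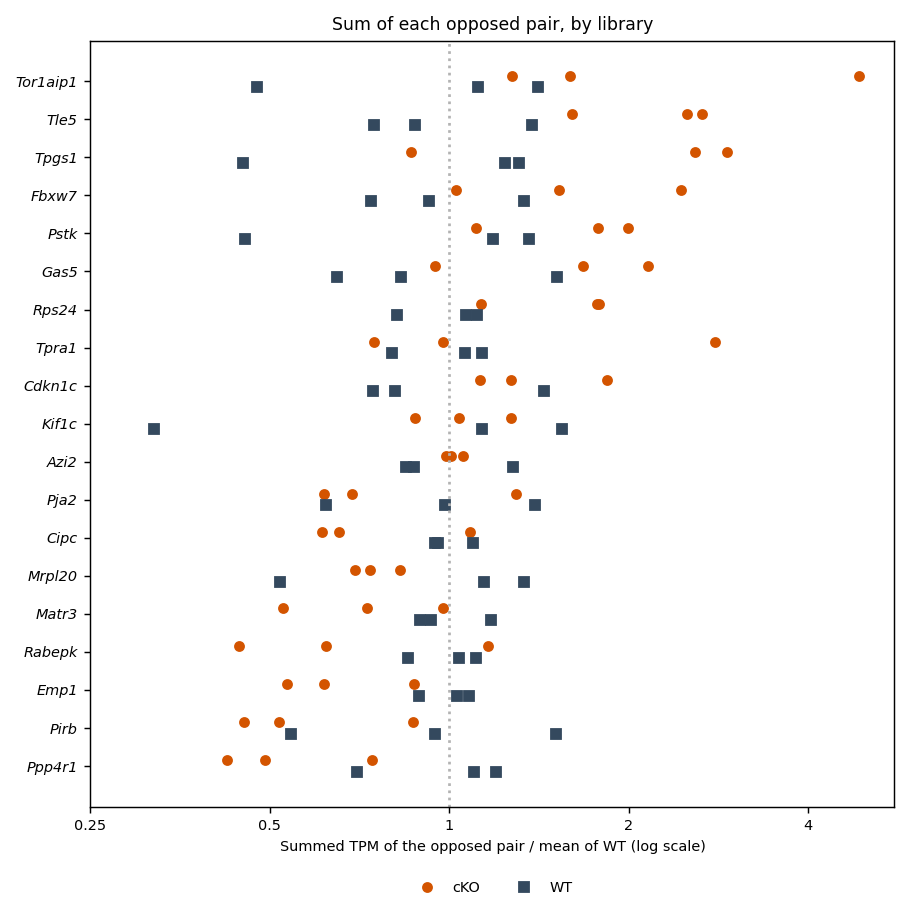
Summed TPM of each leading pair divided by its WT mean, on a log axis, with a point per library and cKO above WT in each row. Each sum joins a transcript chosen as higher with one chosen as lower, so overlap in 16 of the 19 rows is largely fixed by the choice, and the mean ratio of cKO to WT runs from 0.552 in Ppp4r1 to 2.58 in Tor1aip1.

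The members shared no single kind of transcript. Of the 43 opposed transcripts, 34 have a reference identifier, all found in GENCODE M21, and 9 were assembled, 7 of the 24 higher and 2 of the 19 lower ones. Over all listed transcripts meeting the conditions, 84 of 365 higher and 129 of 807 lower ones were assembled. The 17 higher reference transcripts comprised 8 coding, 3 decay-annotated, 4 retained-intron and 2 other noncoding forms. The 17 lower ones comprised 10 coding, 3 decay-annotated, 1 retained-intron and 3 other noncoding forms. Among all listed reference transcripts the coding, decay-annotated and retained-intron classes make up 42.0%, 7.32% and 24.3%. The other noncoding forms here are all of the class processed transcript, which makes up 13.0%. Long intergenic (2.80%) and antisense (2.78%) RNAs are separate noncoding classes. Median length was 688 bases for the higher and 1817 bases for the lower transcripts, against 1256 bases for all listed reference transcripts. In the 12 leading pairs with both partners annotated, the higher form was the shorter in 6, the longer in 5 and of equal length in Cipc, and the first exon differed in 10. Both partners were complete coding transcripts in 3 pairs, those of Cipc, Matr3 and Pja2.

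The other 48 listed transcripts of the 19 genes were low, the highest value being 10.4 TPM for a Cdkn1c transcript in cKO 3, and 29 stayed under 1 TPM in every library. Summed over all listed transcripts of a gene, the sum was higher in each cKO library in Cdkn1c, Pstk, Rps24 and Tle5, lower in Emp1 and Matr3, and overlapping in the other 13. Of 2804 genes with 2 or more listed transcripts and a summed mean of at least 1 TPM in either genotype, 7.31% had a higher and 23.3% a lower sum in cKO without overlap. Nothing is read from the members' counts beside these, since the choice of members used the same contrast. Transcripts of these genes outside the table were not analysed here, so no sum stands for the whole gene. Of 26 functional lists of genes, 6 held a member, and 7 of the 19 genes were in any of them. The lists go by gene symbol and are incomplete, so nothing is read from these counts. Pja2 and Azi2 are in no list, and Kif1c is counted under DNA replication, repair and cell cycle.

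The separation of the groups depended on the scale of the libraries. With TPM rescaled by median ratios over the listed transcripts, 23 of the 24 higher transcripts still had no overlap, but only 4 of the 19 lower ones did, and Mrpl20, Pja2 and Pstk were the only ones of the 19 genes that still met the conditions. With quantile normalization 21 higher and 13 lower transcripts had no overlap, and 10 of the 19 genes met them. The sign of each mean difference was kept by all 43 transcripts under both scalings. As they were chosen for separation on the same values, a kept sign is largely fixed by the choice, and nothing is read from it.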

How the data were processed

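Per the labels' protocols, poly(A) RNA was made into stranded libraries. Their paired reads went through fastp for trimming, HISAT2 for alignment and StringTie for reference-guided assembly. Per the submitters' processing notes, RSEM and DESeq2 were used, with no version stated. The authors' build and annotation are not given in the sources. The authors deposited TPM per transcript and library, with means per genotype. The deposited comparison adds, for cKO over WT, a fold change, the same on the log2 scale, and the authors' p-value, raw and adjusted. This fold change is not the ratio of the TPM means. For Rps24 ENSMUST00000169826 its log2 value is 1.04, whereas the TPM means are 1657 in cKO and 1060 in WT. The fold-change limit and the member conditions therefore rest on different scales. The deposited table holds only transcripts with an absolute log2 fold change of at least 1.0001. Because TPM keeps no read depth, depth is unknown for each library and counting intervals cannot be had. The 6 library columns were matched through the sample labels, which left 0 other columns of sample values.

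The member conditions were applied in Python 3.11.15 with pandas 2.3.3 and numpy 2.4.6 and checked on simulated data. Figures were drawn with matplotlib 3.10.9. The members and the lists were chosen with earlier results of these data known, and no test was run, because the members were selected on the contrast itself. All 19 members are named, ranked by the smaller of the leading pair's means. The planned naming rule also takes members whose opposed transcripts both have an authors' adjusted p under 0.05, and none has. Classes, lengths, exons and sequences come from GENCODE M21 (GRCm38), matched by transcript identifier without version. Of 31854 listed reference transcripts, 31564 matched. Coordinates are those of that annotation and may differ from the authors'. The labels present the libraries of a group as separate animals' samples and do not state that equal numbers form pairs.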

Additional observations from a re-analysis of the deposited data

How the results depend on the processing

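The 19 genes depend on the TPM minimum. With no minimum 116 genes qualify, with 0.5 TPM 51, with 2 TPM 5 (Cipc, Matr3, Pirb, Pja2 and Tpra1) and with 5 TPM 2 (Cipc and Matr3), and 9 if each library of the higher group must reach 1 TPM. Leaving out 1 library gave 45 to 69 genes, since fewer libraries make an overlap rarer, and 17 to 19 of the 19 members were among them. That retention is largely fixed by the choice, and nothing is read from it. A member cannot come to overlap when a library is left out, so it is lost only where a mean falls under 1 TPM. Emp1 and Ppp4r1 were lost without cKO 1, Azi2 and Ppp4r1 without cKO 2, none without cKO 3, Fbxw7 and Pstk without WT 1, Kif1c and Tle5 without WT 2, and Gas5 without WT 3. With each transcript taken as a share of its gene's listed TPM there were 57 genes, 13 of them members. Reference transcripts alone gave 13 genes, rescaling by median ratios 16 and quantile normalization 22, with 3 and 10 members among the last pair. The rescaling factors ran from 0.4 in cKO 1 to 2.02 in WT 2 and rest on a table chosen by fold change. The cause of the losses was not tested. With a replicate block, where same-numbered cKO and WT libraries are compared and groups may overlap, 56 genes qualified. Deviations of same-numbered libraries correlated at 0.135, -0.137 and -0.109 over 2050 transcripts. Across numbers the correlations ran from -0.188, for cKO 1 with WT 3, to 0.232, for cKO 2 with WT 3. By this measure cKO 1 correlated best with its own number, whereas cKO 2 and cKO 3 did not. Deviations within a group depend on each other, so these values cannot decide the pairing. The numbers are not taken as pairs because no label states it.

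The median log2 difference of the higher and lower transcripts was 2.40 and -2.45 with a pseudocount of 0.1, and 1.88 and -0.73 after rescaling by median ratios. It was 1.25 and -0.91 after quantile normalization, and 0.95 to 1.12 and -1.18 to -0.96 with 1 library left out. For the share of the leading pair, 144 of 152 alternatives moved the difference by less than the SD of the libraries. Most of these outcomes were fixed in advance, and nothing is read from that count. Leaving out 1 library cannot move the difference by a full SD. With 1 opposed transcript per direction, taking all opposed transcripts gives the same difference. With all listed transcripts of the gene as the denominator it was 26.2 percentage points instead of 56.6 in Azi2, 26.6 instead of 58.8 in Pirb, 13.6 instead of 46.6 in Tle5, 24.5 instead of 42.6 in Gas5 and 48.2 instead of 85.9 in Tpra1. With all opposed transcripts it was 15.4 instead of 29.7 in Cdkn1c. Over all listed transcripts, the share of the leading higher transcript turned to -2.57 percentage points in Cdkn1c and -1.78 in Pstk. Cdkn1c had 4 higher transcripts and Pstk 2, beside 1 lower one in each. How many reads stand behind a TPM of about 1 is not known.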

Other observations

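Mdfic, a gene for an inhibitor of MyoD family factors, is another gene with a listed pair of identical sequences in GENCODE M21. Its transcripts ENSMUST00000101663 and ENSMUST00000190255 were both at 5.21, 3.75 and 0 TPM in cKO and at 0.51, 0.22 and 1.40 TPM in WT. The gene was chosen after its values were seen.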
